A study of Cucumis sativus with 12 samples.

Results

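Messenger RNA of cucumber (Cucumis sativus) leaves after 24 h in the cold was set against that of leaves after 3 h in the cold, which asks how the late state of a chilled leaf differs from its early state. Both groups came from seedlings at the stage of the third true leaf whose leaves had received 50 mg/L of chitosan oligosaccharide (COS), which is chitosan, a sugar polymer, cut into short chains. The spray was given 24 h before the cold, while plants stood at 28 °C by day and 18 °C by night with a 12 h photoperiod, and the cold was 12 °C by day and 6 °C by night. The 24 h group and the 3 h group had 3 libraries each, and fully expanded leaves were sampled. Levels at 0 h (sprayed, no cold) and 12 h of cold, also with 3 libraries each, are given as background only, which brings the libraries used to 12. A gene entered the comparison with an FPKM (fragments counted for a gene, scaled by its transcript length and by library size) of at least 1 in at least 3 of the 6 libraries, which held for 15798 of the 24317 genes in the table. Of these, 13798 (87.3%) reached that level in all 6 libraries, while 300 reached it in all 24 h libraries and no 3 h library, and 440 in all 3 h libraries and no 24 h library. These 2 sets entered through the group in which they were high, so they had to differ (295 of the 300 were called higher and 411 of the 440 lower). List members among them are set apart where they make up much of a count. Any named gene under 1 FPKM in every library of 1 group belongs to these sets, and its p-value is no added support.

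All groups carry the spray, and water-sprayed plants were not analysed here, so the comparison holds no measure of the spray's effect. Hours since spraying, plant age and time in the cold differ together between the groups and cannot be told apart. The sources used here do not give the clock time of sampling, so hour of day and duration of cold cannot be told apart either. Whether the 3 libraries of a group stem from separate plants is not stated in the labels. The p-values therefore measure only how far these libraries spread, which may be technical. In bulk tissue, fewer cells of a type and less RNA per cell cannot be told apart.

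Cucumber is a chilling-sensitive plant of warm climates. In plants, cold is met by an early wave of calcium and kinase signalling and of transcription factors such as the DREB (CBF) proteins, which bind promoters of genes for protective proteins, membrane lipids and sugars. Cold also slows enzymes while light is still absorbed, so photosynthesis, carbon export, phosphate use and protein synthesis are readjusted over the following hours, and many of the genes involved also follow the circadian clock.

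The 6 libraries held 62.7 to 77.9 M estimated counts (M, 10 to the power of 6), about 16.2 to 20.1 M fragments at the spacing of the lowest values. Across the tested genes, log2 levels correlated at 0.8286 to 0.8514 between 24 h and 3 h libraries, at 0.9639 to 0.9831 among the 24 h libraries and at 0.9889 to 0.9924 among the 3 h libraries; these run across genes, and genes are no independent replicates. The 24 h libraries spread more: the highest of them was at least 2 times the lowest for 12.6% of tested genes, against 4.24% among the 3 h libraries. Replicates 1 and 3 of the 24 h group were the farthest apart. Photosystem and light-harvesting genes, which mark green leaf tissue, summed to 18740 to 20070 FPKM at 24 h and 30930 to 32210 FPKM at 3 h, so all 6 libraries carried the RNA of photosynthetic leaf.

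In the edgeR quasi-likelihood test with Benjamini-Hochberg adjustment, 9901 of 15798 genes (62.7%) passed an adjusted p of 0.05. At 24 h 5031 genes (31.8%) were higher and 4870 (30.8%) lower than at 3 h, and the median log2 fold change over all tested genes was -0.002. A fold change of at least 2 was reached by 2267 genes that rose (14.3%) and 2335 that fell (14.8%), one of at least 4 by 840 and 711 genes (9.82% in both directions), and one of at least 8 by 327 that rose (2.07%) and 227 that fell (1.44%). The 24 h and 3 h libraries did not overlap in FPKM for 11076 genes (70.1%). With this background a gene list in which about 31.8% of tested members rose or 30.8% fell is like all genes, and the counts of the lists below are read against these shares. Upper quartile scaling moved the median of all genes to -0.13 and the split of calls to 4199 higher and 5733 lower, so a scaling choice shifts many small changes. For every gene named below as risen or fallen, the 24 h and 3 h libraries did not overlap in FPKM unless this is stated.

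**Figure D1:**
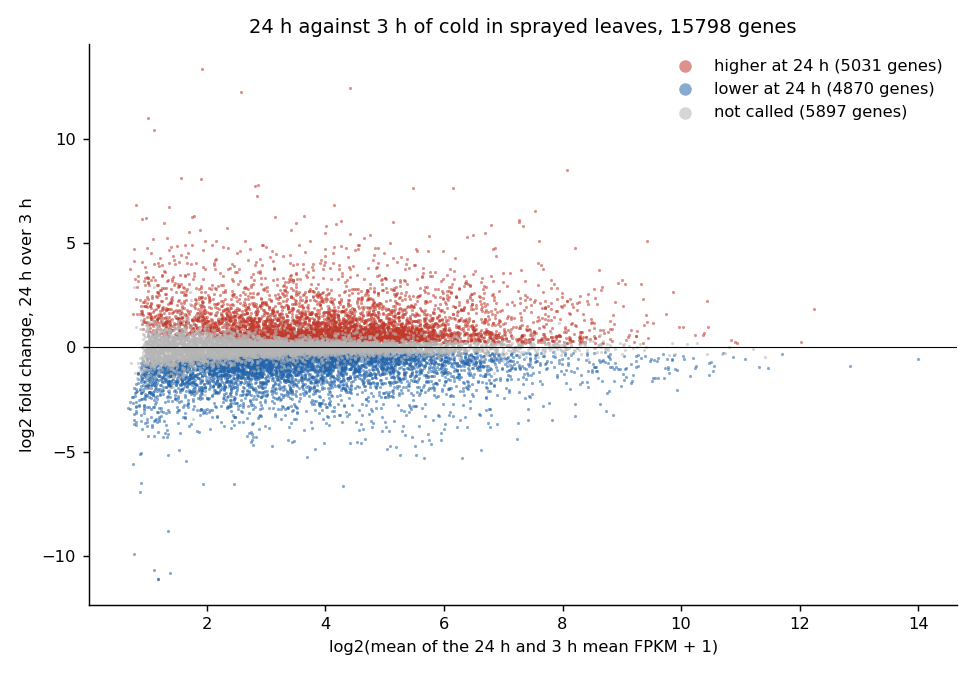
Log2 fold change (24 h over 3 h, vertical axis) against the log2 of the mean FPKM of both groups plus 1 (horizontal axis) for 15798 genes, 1 point per gene. Red points are the 5031 genes called higher at 24 h, blue points the 4870 called lower and grey points the 5897 not called; calls lie on both sides of 0 at all levels.

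A J-domain co-chaperone led the rises when described genes that averaged 5 FPKM or more in their higher group were ranked by the difference in log2(FPKM + 1). The dnaJ homolog subfamily B member 6-like gene CsaV3_5G028590 (chromosome 5, 23698919 to 23700429), of the Hsp40 proteins that hand clients to Hsp70, had 450.3, 521 and 636 FPKM in the 24 h libraries, against 1.40, 1.75 and 1.40 FPKM in the 3 h libraries. Its log2 fold change was 8.52 with an SE of 0.19 (edgeR, adjusted p = 9.05e-07), which is 368-fold, and its means at 0 h and 12 h were 0.134 and 418 FPKM. The RNA was thus near absent at 0 h and 3 h and was among the more abundant ones at 12 h and 24 h. A second J-domain gene, chaperone protein dnaJ 11-like (CsaV3_2G015850, chromosome 2, 13149526 to 13150014), had 494, 450.2 and 145 FPKM at 24 h, against 6.22, 2.85 and 2.98 FPKM at 3 h. Its log2 fold change was 6.56 with an SE of 0.60 (edgeR, adjusted p = 6.81e-05). It had a different course, with means of 60.97 FPKM at 0 h and 13.4 FPKM at 12 h, and 24 h replicate 3 lay well below the other 24 h libraries though above every 3 h library.

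Clock and stress regulators followed. APRR3 (CsaV3_5G000090, chromosome 5, 54545 to 59025), a pseudo-response regulator that acts as a repressor within the circadian clock, had 264, 301 and 336 FPKM at 24 h, against 5.38, 3.86 and 5.10 FPKM at 3 h, a log2 fold change of 6.03 with an SE of 0.18 (edgeR, adjusted p = 1.4e-06). Heat stress transcription factor A-6b (CsaV3_3G012910, chromosome 3, 9871823 to 9874637) had 66.8, 64.4 and 71.8 FPKM at 24 h, against 0.927, 1.20 and 1.13 FPKM at 3 h, a log2 fold change of 6.01 with an SE of 0.13 (edgeR, adjusted p = 9.05e-07). Both genes were already at their late level at 12 h, with means of 338 and 76.4 FPKM. The F-box gene CsaV3_6G038430, whose class of proteins picks targets for ubiquitination, had 99.7, 88.3 and 72.2 FPKM at 24 h, against 0.403, 0.630 and 0.305 FPKM at 3 h, and a mean of 16.9 FPKM at 12 h, so most of its level was reached after 12 h. This F-box gene entered only through the 24 h libraries. A gene described as subunit 7-like of RNA polymerase V (CsaV3_3G012620), a plant polymerase of RNA-directed DNA methylation, had 434, 295 and 178 FPKM at 24 h, against 6.17, 3.88 and 3.71 FPKM at 3 h. Their log2 fold changes were 7.67 with an SE of 0.28 (edgeR, adjusted p = 2.51e-06) and 6.11 with an SE of 0.41 (edgeR, adjusted p = 1.8e-05).

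The rest of the 12 largest rises had mixed functions. Thiamine thiazole synthase (CsaV3_3G005340, chromosome 3, 4460414 to 4462644), which builds the thiazole ring of vitamin B1 in the chloroplast, had 806, 1471 and 1728 FPKM at 24 h, against 45.96, 36.4 and 38.4 FPKM at 3 h, a log2 fold change of 5.11 with an SE of 0.30 (edgeR, adjusted p = 9.64e-06). It was the most abundant of the 12, and its mean at 12 h was 1765 FPKM. A short-chain dehydrogenase reductase 3b-like gene (CsaV3_7G030330), of a large family of oxidoreductases, had 88.3, 214 and 343 FPKM at 24 h, against 4.56, 3.44 and 3.29 FPKM at 3 h. Here 24 h replicate 1 was the low library, and the log2 fold change was 5.89 with an SE of 0.52 (edgeR, adjusted p = 5.63e-05). The BTB/POZ and TAZ domain gene CsaV3_1G009120 had 473, 436 and 224 FPKM at 24 h, against 11.2, 11.2 and 11.3 FPKM at 3 h, and stem-specific protein TSJT1 (CsaV3_6G050010) had 125, 152 and 32.6 FPKM at 24 h, against 2.41, 3.01 and 2.50 FPKM at 3 h. Both were lowest in 24 h replicate 3, and their log2 fold changes were 5.13 with an SE of 0.30 (edgeR, adjusted p = 1.04e-05) and 5.36 with an SE of 0.58 (edgeR, adjusted p = 0.000164). GLUTAMINE DUMPER 5-like (CsaV3_4G036310), of a family that promotes amino acid export in Arabidopsis, rose by 6.09 (SE 0.30) on the log2 scale, to 35.9 ± 8.90 FPKM at 24 h, against 0.541 ± 0.193 FPKM at 3 h (mean ± SD, n = 3 here and below). Hypersensitive-induced response protein 1 (CsaV3_1G002160) rose by 5.39 (SE 0.20), to 174 ± 38.3 FPKM at 24 h, against 4.29 ± 0.544 FPKM at 3 h. It overlaps a gene on the opposite strand, and since the sources used here do not state whether counting used strand, reads of such pairs cannot be told apart.

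The largest falls held growth, wall and calcium signalling genes. Putative GATA transcription factor 22 (CsaV3_1G040390, chromosome 1, 25640656 to 25643233), whose Arabidopsis relatives promote greening and chloroplast development, had 4.26, 3.49 and 3.42 FPKM at 24 h, against 156, 142 and 158 FPKM at 3 h. Its log2 fold change was -5.29 with an SE of 0.13 (edgeR, adjusted p = 1.18e-06), a 39.00-fold lower level, and its means at 0 h and 12 h were 75.2 and 15.4 FPKM. The gibberellin-stimulated gene GAST1 (CsaV3_3G042990) had 0.596, 0 and 0.422 FPKM at 24 h, against 32.6, 41.4 and 37.5 FPKM at 3 h, a log2 fold change of -6.67 with an SE of 0.69 (edgeR, adjusted p = 0.000128). GAST1 entered only through the 3 h libraries. Auxin-induced protein 15A (CsaV3_2G015380), of the SAUR family tied to cell expansion, had 2.44, 1.70 and 1.61 FPKM at 24 h, against 60.3, 85.9 and 70.8 FPKM at 3 h, a log2 fold change of -5.15 with an SE of 0.24 (edgeR, adjusted p = 4.15e-06). In all 3 genes the groups lay far apart, and the 3 h level stood above the mean at 0 h, which was 4.34 FPKM for GAST1 and 31.1 FPKM for 15A.

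Phospholipase D p2 (CsaV3_2G006790, chromosome 2, 3341776 to 3351658), an enzyme that cuts the head group from phospholipids, had 2.74, 4.73 and 5.64 FPKM at 24 h, against 91.1, 114 and 96.8 FPKM at 3 h. Its log2 fold change was -4.46 with an SE of 0.27 (edgeR, adjusted p = 1.09e-05), and the 24 h level was close to the mean at 0 h, 3.21 FPKM. Probable pectate lyase 5 (CsaV3_1G009130), which cleaves pectin of the cell wall, had 3.51, 2.42 and 3.52 FPKM at 24 h, against 68.8, 111 and 78.8 FPKM at 3 h, a log2 fold change of -4.71 with an SE of 0.24 (edgeR, adjusted p = 5.5e-06). Dirigent protein 7-like (CsaV3_6G006930), of a family that steers the coupling of phenolics, fell by 4.74 (SE 0.38), to 2.32 ± 1.36 FPKM at 24 h, against 64.2 ± 2.87 FPKM at 3 h. The esterase PIR7A gene CsaV3_7G008920 fell by 4.65 (SE 0.27), wound-induced protein 1 (CsaV3_4G026930) by 4.87 (SE 0.32), the 21 kDa protein-like gene (CsaV3_5G028280) by 5.32 (SE 0.20) and the F-box gene At2g26850-like (CsaV3_3G043010) by 4.44 (SE 0.10) on the log2 scale. Wound-induced protein 1 still averaged 56.5 FPKM at 12 h, close to 66.3 FPKM at 0 h, so its low level belongs to 24 h among the times sampled. A pair of genes described as CBL-interacting protein kinase 14-like, CsaV3_UNG100750 and CsaV3_UNG100740, fell by 4.94 (SE 0.51) and 4.78 (SE 0.25). They overlap each other on opposite strands of an unplaced scaffold, so they may be counted from shared reads.

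**Figure D2:**
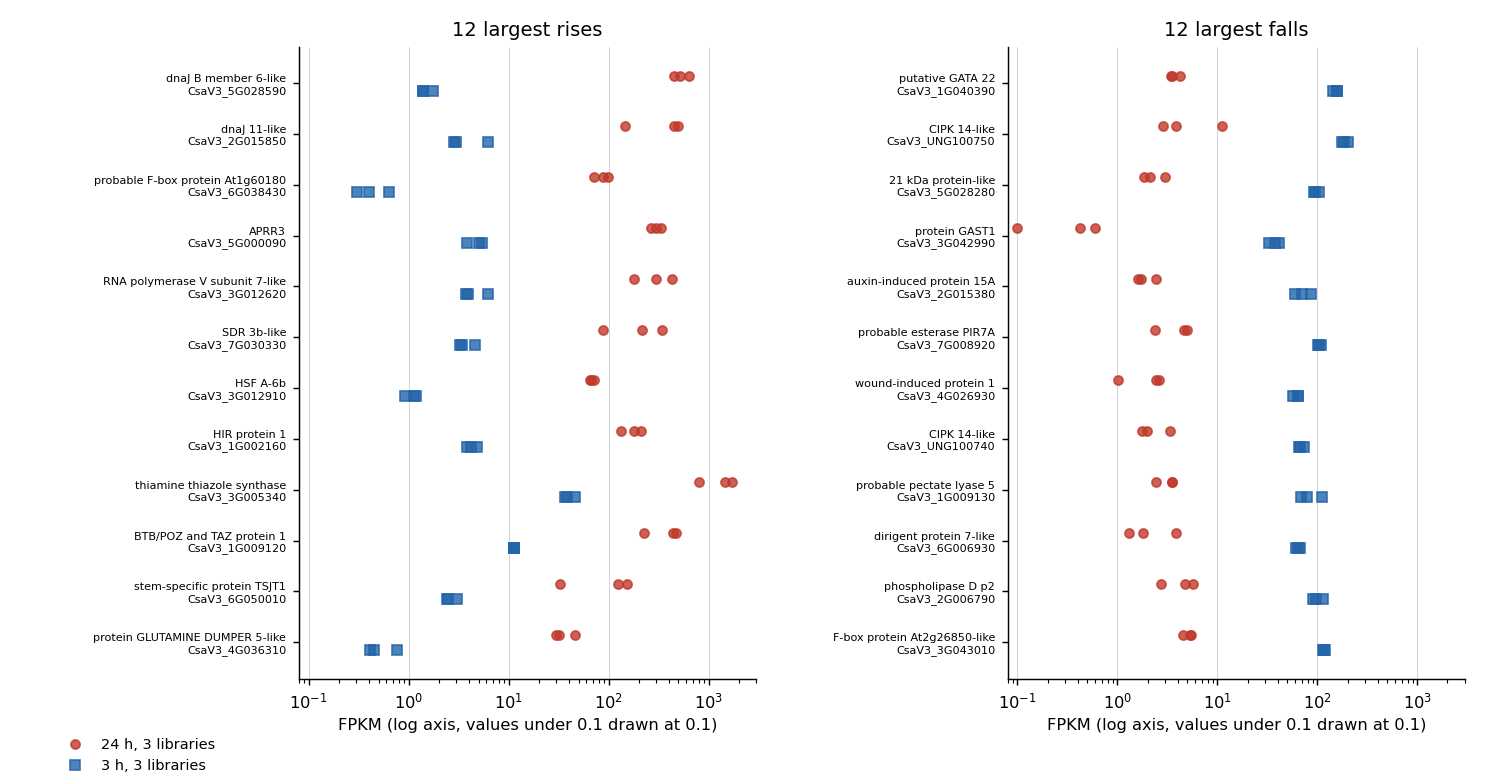
FPKM in each library (horizontal log axis) for the 12 largest rises (left) and the 12 largest falls (right); red circles are the 3 libraries of 24 h and blue squares the 3 libraries of 3 h. In every gene all 24 h libraries lie on the same side of all 3 h libraries, and dnaJ 11-like (494, 450.2 and 145 FPKM at 24 h) shows the wider spread of the 24 h group.

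Of the 19 tested clock genes, 12 rose and 6 fell (median log2 fold change 0.53, against -0.002 over all genes). Of the 12 rises 2, adagio protein 3 and APRR5, entered only through the 24 h libraries and had to differ. The circadian clock of plants runs on morning factors such as LHY that repress evening factors such as GIGANTEA, with pseudo-response regulators acting in turn through the day. GIGANTEA-like (CsaV3_6G005020) had 219, 322 and 333 FPKM at 24 h, against 24.3, 21.6 and 23.8 FPKM at 3 h, a log2 fold change of 3.71 with an SE of 0.17 (edgeR, adjusted p = 4.23e-06). Adagio protein 3 (CsaV3_5G014370), a blue-light receptor of an F-box ligase that acts with GIGANTEA in Arabidopsis, had 25.6, 35.3 and 40.1 FPKM at 24 h, against 0.722, 0.406 and 0.576 FPKM at 3 h, a log2 fold change of 5.94 with an SE of 0.26 (edgeR, adjusted p = 3.94e-06). Adagio 3, GIGANTEA-like and APRR3 were all well above their 3 h level at 12 h too, at 45.1, 285 and 338 FPKM. APRR5 (CsaV3_5G002610) was listed at 0 in all 3 libraries of 3 h and at 2.82, 1.41 and 1.84 FPKM at 24 h.

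The morning gene LHY-like (CsaV3_6G008360), which overlaps another gene on the same strand, had 164, 138 and 122 FPKM at 24 h, against 558, 537 and 541 FPKM at 3 h, a log2 fold change of -1.88 with an SE of 0.12 (edgeR, adjusted p = 1.58e-05). Its mean at 12 h was 235 FPKM, between the 24 h and the 3 h level. Genes with the same description did not move as sets. Of the pair of EARLY FLOWERING 3 genes, parts of the evening complex, CsaV3_2G025750 rose by 2.75 (SE 0.09) and CsaV3_7G034990 fell by 0.28 (SE 0.10), and both overlap opposite-strand genes. Of the pair of APRR7 genes, CsaV3_4G024430 rose by 2.08 (SE 0.16), to 168 ± 32.97 FPKM at 24 h, against 41.2 ± 3.98 FPKM at 3 h, while CsaV3_5G000530 fell by 0.82 (SE 0.18). Of the pair of REVEILLE 6 genes, CsaV3_5G001040 rose by 1.47 (SE 0.10) and CsaV3_3G008670 (overlapping an opposite-strand gene) fell by 0.72 (SE 0.08). REVEILLE 8-like (CsaV3_3G035450) fell by 0.90 (SE 0.12) and APRR2 (CsaV3_3G002030) by 0.38 (SE 0.08). The other 5 rises were of 0.27 to 0.61 on the log2 scale. Among them was a second GIGANTEA gene (CsaV3_7G024490, overlapping a same-strand gene), at 0.42 (SE 0.14). Its 24 h and 3 h libraries overlapped, with means of 13.7 and 10.7 FPKM, and its mean at 0 h was 24.1 FPKM. REVEILLE 1-like (CsaV3_5G020580) was not called, with 82.2, 58.7 and 33.4 FPKM at 24 h, against 39.6, 36.5 and 36.6 FPKM at 3 h.

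Regulators of day length and light were more often lower than higher at 24 h. Of 19 CONSTANS-like and B-box factors, 4 rose, 9 fell, all 9 by at least 2-fold, and 6 were not called (median -0.78, and -0.46 without 24 h replicate 3). CONSTANS-LIKE 11 (CsaV3_2G035220, overlapping an opposite-strand gene) had 1.87, 1.72 and 1.82 FPKM at 24 h, against 49.5, 34.3 and 50.9 FPKM at 3 h, a log2 fold change of -4.57 with an SE of 0.18 (edgeR, adjusted p = 3.03e-06). CONSTANS-LIKE 9 (CsaV3_5G034710) fell by 2.16 (SE 0.33), while CONSTANS-LIKE 14-like (CsaV3_4G002870) rose by 2.85 (SE 0.16) and B-box zinc finger protein 20 (CsaV3_7G000270) by 2.95 (SE 0.23), to 34.3 ± 10.5 FPKM at 24 h, against 4.63 ± 0.413 FPKM at 3 h. The most abundant member, CONSTANS-LIKE 5-like (CsaV3_1G031230), was not called and its groups overlap, with 379, 244 and 163 FPKM at 24 h, against 257, 249.6 and 256 FPKM at 3 h. Of 23 phytochromes, cryptochromes and light signalling genes, 5 rose and 15 fell (median -0.95). Phytochrome A-associated F-box protein (CsaV3_4G000750), a modulator of far-red light signalling, had 7.67, 4.86 and 6.55 FPKM at 24 h, against 51.5, 48.9 and 48.7 FPKM at 3 h, a log2 fold change of -2.90 with an SE of 0.17 (edgeR, adjusted p = 9.78e-06). SPA1-RELATED 3 (CsaV3_4G033700), a partner of the ubiquitin ligase COP1, fell by 1.89 (SE 0.08), whereas SPA1-RELATED 2 (CsaV3_5G002160) rose by 0.82 (SE 0.09). PIF1-like (CsaV3_3G028610), a bHLH factor held in check by phytochrome, rose by 2.34 (SE 0.26), and the blue-light receptor phototropin-2 (CsaV3_6G009940), the most abundant of the list, fell by 0.96 (SE 0.14), to 107 ± 20.9 FPKM at 24 h, against 217 ± 16.99 FPKM at 3 h.

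**Figure D3:**
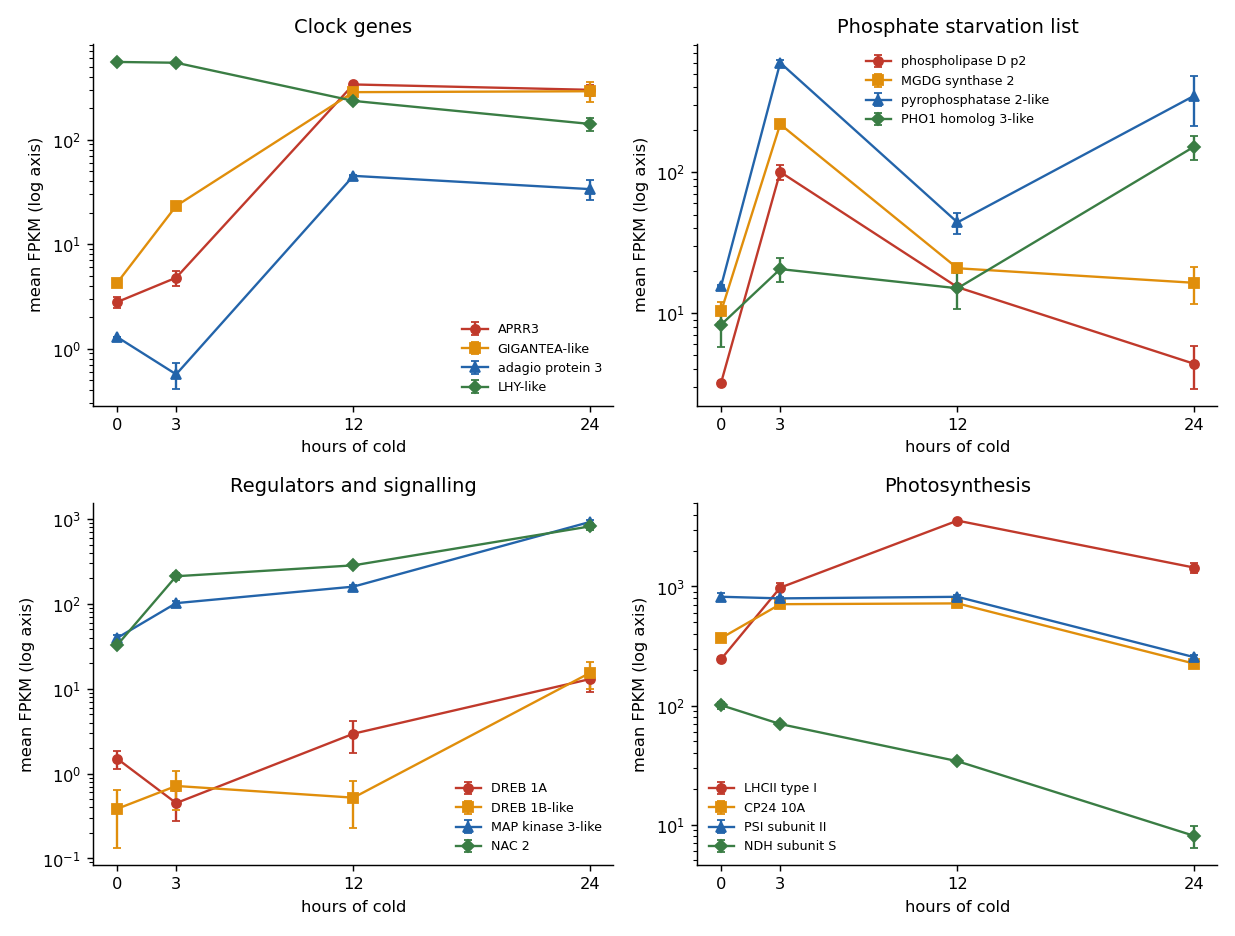
Mean FPKM (vertical log axis, error bars SD of 3 libraries, shortened at the lower end where they would reach 0) against hours of cold for 16 genes in 4 panels. APRR3, GIGANTEA-like and adagio 3 stand high at 12 h and 24 h, the phospholipase D p2 gene peaks at 3 h, and the DREB 1A and 1B-like genes have their highest mean at 24 h.

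Of 7 tested genes of the DREB family of cold regulators (12 in the table), 5 rose and none fell, with a median of 1.61. Of the 5 rises 2, DREB 1A and 1E, entered only through the 24 h libraries and had to differ. Under upper quartile scaling and 6 other alternatives, among them leaving out 24 h replicate 1, 1 member was called lower. DREB 1A (CsaV3_3G016760), of the group known as CBF that switches on cold-regulated genes, had 12.1, 17.3 and 9.59 FPKM at 24 h, against 0.615, 0.274 and 0.460 FPKM at 3 h, a log2 fold change of 4.90 with an SE of 0.36 (edgeR, adjusted p = 2.6e-05). DREB 1B-like (CsaV3_5G005890) had 20.2, 16.4 and 9.43 FPKM at 24 h, against 1.09, 0.654 and 0.405 FPKM at 3 h, a log2 fold change of 4.47 with an SE of 0.45 (edgeR, adjusted p = 0.000108). For both, all 24 h libraries stood above all 3 h libraries, and the means at 0 h and 12 h were 1.50 and 2.95 FPKM for 1A and 0.384 and 0.521 FPKM for 1B-like. DREB 1E (CsaV3_5G003250) was also called higher but stayed low, at 1.60, 2.13 and 1.46 FPKM at 24 h, against 0, 0 and 0.0598 FPKM at 3 h. Of the drought-linked DREB2 group, 2A-like genes CsaV3_4G026910 and CsaV3_4G026790 rose by 1.29 (SE 0.09) and 1.61 (SE 0.11), and CsaV3_4G026790 overlaps a gene on the opposite strand. Another 2A-like gene, CsaV3_6G012590, and 2C (CsaV3_6G002010) had log2 fold changes of -0.07 (SE 0.12) and -0.25 (SE 0.12) and were not called.

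Genes named for cold or drying gave a mixed picture. Of 8 such genes 3 rose and 2 fell (median 0.37, and 0.07 without 24 h replicate 1). Dehydrin DHN1-like (CsaV3_4G005460), of a class of hydrophilic proteins that protect membranes and enzymes, had 334, 264 and 66.6 FPKM at 24 h, against 8.27, 17.1 and 7.36 FPKM at 3 h, a log2 fold change of 4.42 with an SE of 0.65 (edgeR, adjusted p = 0.000733). Its 24 h libraries differed widely among themselves, yet the lowest was above every 3 h library, and its mean at 12 h was 17.2 FPKM. CSC1-like protein ERD4 (CsaV3_6G052110), of a family of osmosensitive calcium channels, rose by 2.47 (SE 0.15), and a low-temperature-induced cysteine proteinase (CsaV3_4G034650) by 1.23 (SE 0.09). Another proteinase with this description (CsaV3_7G008340) fell by 0.72 (SE 0.10). Both cold-regulated 413 genes were not called: the plasma membrane member CsaV3_2G014340 had 112, 68.8 and 44.9 FPKM at 24 h, against 55.99, 67.5 and 50.97 FPKM at 3 h. Of 7 late embryogenesis abundant (LEA) genes 3 rose, 1 of them entered only through the 24 h libraries, and 2 fell (median 1.38, and 0.79 without 24 h replicate 1). With a mean of at least 5 FPKM required 1 rose and 2 fell. Without 3 h replicate 1, 3 h replicate 3 or 24 h replicate 3, 1 LEA gene fell, and without 3 h replicate 2 or 3, 2 rose. Lea5-A-like (CsaV3_4G000870) had 52.2, 48.4 and 40.7 FPKM at 24 h, against 7.28, 5.05 and 9.75 FPKM at 3 h, a log2 fold change of 2.73 with an SE of 0.25 (edgeR, adjusted p = 6.67e-05), and a D-34 gene (CsaV3_3G013280) fell by 1.89 (SE 0.14). Of 20 proline and polyamine genes 6 rose and 2 fell (median 0.11), and 4 fell without 24 h replicate 1 or without 24 h replicate 3. Polyamine oxidase 2 (CsaV3_4G032140) rose by 1.77 (SE 0.12), S-adenosylmethionine decarboxylase (CsaV3_2G007750), which feeds polyamine synthesis, fell by 1.47 (SE 0.10). The more abundant gene of pyrroline-5-carboxylate synthase, the entry step to proline (CsaV3_6G001400), had 26.9, 27.3 and 30.7 FPKM at 24 h, against 30.7, 30.9 and 27.9 FPKM at 3 h, and was not called.

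Zinc finger, NAC and ethylene-responsive factors were more often higher than lower at 24 h. Of 9 ZAT genes, C2H2 zinc finger repressors of the stress response, 6 rose, all by at least 2-fold, and 1 fell (median 1.79). ZAT10 (CsaV3_4G034970) had 501, 434 and 432 FPKM at 24 h, against 124, 107 and 105 FPKM at 3 h, a log2 fold change of 2.09 with an SE of 0.11 (edgeR, adjusted p = 5.81e-06). The ZAT10-like gene CsaV3_2G026210 rose by 2.66 (SE 0.17), ZAT11 (CsaV3_6G022190) by 3.45 (SE 0.25) and ZAT12-like (CsaV3_5G006930) by 1.25 (SE 0.14), while another ZAT10 gene (CsaV3_7G007890) had a log2 fold change of -0.05 (SE 0.20) and was not called. Of 33 NAC factors, a plant family of stress and senescence regulators, 20 rose and 4 fell (median 1.25); 3 of the rises and 2 of the falls entered only through the higher group. NAC domain-containing protein 2 (CsaV3_2G019740) had 733, 870.0 and 855 FPKM at 24 h, against 227, 218 and 191 FPKM at 3 h, a log2 fold change of 2.01 with an SE of 0.10 (edgeR, adjusted p = 5.37e-06). NAC 90 (CsaV3_6G038410) rose by 4.33 (SE 0.39) and NAC 21/22-like (CsaV3_2G022180) by 4.03 (SE 0.47), whereas NAC 55 (CsaV3_3G006790) and NAC 25 (CsaV3_4G002890) fell by 1.34 (SE 0.14) and 0.78 (SE 0.10).

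Of 63 ethylene-responsive factors 31 rose and 18 fell (median 0.69). ERF 6 (CsaV3_3G002470), an activator of defence and oxidative stress genes in Arabidopsis, had 363, 363 and 355 FPKM at 24 h, against 28.2, 18.1 and 21.4 FPKM at 3 h, a log2 fold change of 4.06 with an SE of 0.17 (edgeR, adjusted p = 3.49e-06). ERF 1A-like (CsaV3_5G004600) rose by 5.62 (SE 0.28). ERF043-like (CsaV3_3G048560) fell by 4.49 (SE 0.33), and SHINE 2 (CsaV3_3G046440), of a group that promotes cuticular wax in Arabidopsis, had 4.46, 4.08 and 4.37 FPKM at 24 h, against 40.5, 46.1 and 41.7 FPKM at 3 h, a log2 fold change of -3.25 with an SE of 0.10 (edgeR, adjusted p = 1.4e-06). The most abundant member, RAP2-4 (CsaV3_1G022920), fell by 0.60 (SE 0.13). With a mean of at least 5 FPKM required, 18 of this family were called higher.

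WRKY, MYB and bHLH factors moved in both directions. Of 37 WRKY factors, regulators of defence, 16 rose and 10 fell (median -0.11, and 0.09 without 3 h replicate 2), and 10 rose with a mean of at least 5 FPKM required. WRKY 46 (CsaV3_3G008170), the most abundant, had 394, 491 and 574 FPKM at 24 h, against 240.0, 244 and 189 FPKM at 3 h, a log2 fold change of 1.18 with an SE of 0.15 (edgeR, adjusted p = 0.000364). WRKY 75 (CsaV3_4G003030) and WRKY 69-like (CsaV3_7G005750) rose by 2.58 (SE 0.40) and 2.22 (SE 0.26), and WRKY 27 (CsaV3_4G001260) fell by 1.53 (SE 0.18). Of 44 MYB factors 11 rose and 19 fell (median -0.39). MYB44-like (CsaV3_2G028170), a stress regulator in Arabidopsis, had 23.9, 33.1 and 37.4 FPKM at 24 h, against 1.20, 2.01 and 1.02 FPKM at 3 h, a log2 fold change of 4.54 with an SE of 0.29 (edgeR, adjusted p = 1.5e-05), and Myb4-like (CsaV3_3G022290) rose by 4.59 (SE 0.30). MYB1R1-like (CsaV3_2G025610) had 3.65, 3.22 and 3.27 FPKM at 24 h, against 47.4, 49.3 and 52.3 FPKM at 3 h, a log2 fold change of -3.81 with an SE of 0.11 (edgeR, adjusted p = 1.4e-06), and means of 5.80 and 9.70 FPKM at 0 h and 12 h, so it was high only at 3 h among the times sampled. Of 60 bHLH factors 11 rose and 27 fell (median -0.31). The bHLH35-like gene CsaV3_2G008770 had 5.12, 3.33 and 3.38 FPKM at 24 h, against 80.7, 80.4 and 85.00 FPKM at 3 h, a log2 fold change of -4.31 with an SE of 0.19 (edgeR, adjusted p = 4.01e-06). The most abundant, bHLH67 (CsaV3_3G007090), fell by 2.45 (SE 0.17), to 38.2 ± 9.13 FPKM at 24 h, against 218 ± 7.36 FPKM at 3 h, and bHLH147 (CsaV3_6G028530) rose by 1.17 (SE 0.19).

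Heat stress factors, which bind promoters of chaperone genes, were mostly higher late. Of 16 tested, 10 rose and 4 fell (median 1.08). Of the 10 rises 2, C-1-like and B-3-like (CsaV3_3G040700), entered only through the 24 h libraries and had to differ. Factor B-2b-like (CsaV3_3G016950), of the repressor class, had 231, 265 and 275 FPKM at 24 h, against 59.2, 44.9 and 49.7 FPKM at 3 h, a log2 fold change of 2.39 with an SE of 0.13 (edgeR, adjusted p = 6.61e-06). C-1-like (CsaV3_1G024170) rose by 4.91 (SE 0.22) and A-8 (CsaV3_5G014520, overlapping an opposite-strand gene) by 2.72 (SE 0.09). Relatives went the other way: C-1 (CsaV3_2G002270) had 35.1, 16.6 and 11.2 FPKM at 24 h, against 98.1, 83.2 and 92.3 FPKM at 3 h, a log2 fold change of -2.05 with an SE of 0.39 (edgeR, adjusted p = 0.00261), and a mean of 505 FPKM at 0 h. The A-6b-like gene CsaV3_7G027860 fell by 1.18 (SE 0.20), to 28.7 ± 8.28 FPKM at 24 h, against 67.6 ± 5.62 FPKM at 3 h. The A-6b pair thus moved in opposite directions, though the A-6b-like gene stayed above its mean at 0 h, 4.58 FPKM.

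Of 37 heat shock proteins 17 rose and 12 fell (median 0.03). Heat shock protein 70 (CsaV3_4G024840), the central cytosolic chaperone, had 2108, 2160 and 2563 FPKM at 24 h, against 488, 530.4 and 478 FPKM at 3 h, a log2 fold change of 2.25 with an SE of 0.10 (edgeR, adjusted p = 3.71e-06), and means of 64.9 and 1439 FPKM at 0 h and 12 h. The small heat shock proteins, which hold unfolding proteins in solution, split: a 17.3 kDa class I gene (CsaV3_1G035830) rose by 3.59 (SE 0.35) and a 15.4 kDa class V gene (CsaV3_1G010860) by 3.37 (SE 0.14), while a 17.8 kDa class I gene (CsaV3_5G008700) fell by 2.98 (SE 0.27) and a chloroplastic member (CsaV3_5G030610) by 2.09 (SE 0.15). Of 51 DnaJ co-chaperones 19 rose and 11 fell (median 0.13), and under upper quartile scaling 15 rose and 15 fell. Beside the B6-like and dnaJ 11-like genes described above, the most abundant member (CsaV3_5G035180) rose by 0.57 (SE 0.10), and a subfamily C member 21-like gene (CsaV3_7G029620) fell by 2.87 (SE 0.40).

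Signalling genes downstream of calcium were among the larger groups with more rises. Of 123 calcium sensors and kinases 60 rose and 38 fell (median 0.34). CBL-interacting kinase 6 (CsaV3_2G003670) had 1054, 1002 and 949 FPKM at 24 h, against 391.7, 349 and 340.4 FPKM at 3 h, a log2 fold change of 1.54 with an SE of 0.09 (edgeR, adjusted p = 1.06e-05). The calcium-binding protein CML19 (CsaV3_1G000650) had 107, 66.7 and 56.2 FPKM at 24 h, against 4.19, 5.05 and 3.29 FPKM at 3 h, a log2 fold change of 4.26 with an SE of 0.30 (edgeR, adjusted p = 2.1e-05). CBL-interacting kinase 25-like (CsaV3_3G032810, overlapping an opposite-strand gene) rose by 6.31 (SE 0.52). Of 33 MAP kinase cascade genes 16 rose and 7 fell (median 0.42). MAP kinase 3-like (CsaV3_1G033530), a kinase of stress and immune signalling, had 978, 935 and 858 FPKM at 24 h, against 109.9, 95.4 and 101 FPKM at 3 h, a log2 fold change of 3.24 with an SE of 0.10 (edgeR, adjusted p = 1.44e-06), and averaged 159.9 FPKM at 12 h. A MAP kinase kinase kinase 3-like gene (CsaV3_6G043320) rose by 3.47 (SE 0.16), whereas MAP kinases 19 (CsaV3_4G007970) and 12-like (CsaV3_5G013880) fell by 1.70 (SE 0.13) and 1.69 (SE 0.13).

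Among hormone genes, those of jasmonate leaned upward. Of 32 jasmonate and oxylipin genes 17 rose and 7 fell (median 0.67). TIFY 11A (CsaV3_3G030830), a JAZ repressor that the hormone itself induces, had 176, 209 and 191 FPKM at 24 h, against 40.6, 34.6 and 26.9 FPKM at 3 h, a log2 fold change of 2.56 with an SE of 0.16 (edgeR, adjusted p = 1.17e-05). TIFY 5A-like (CsaV3_1G032370) rose by 3.98 (SE 0.44) and 12-oxophytodienoate reductase 1 (CsaV3_2G033050) by 1.61 (SE 0.13), to 414 ± 70.1 FPKM at 24 h, against 141 ± 12.1 FPKM at 3 h. Of 24 ethylene genes 7 rose and 9 fell (median -0.12). Among them ACC oxidase 1-like (CsaV3_6G037780), the last enzyme of ethylene synthesis, had 1061, 934 and 833 FPKM at 24 h, against 134, 108 and 109 FPKM at 3 h, a log2 fold change of 3.07 with an SE of 0.14 (edgeR, adjusted p = 4.07e-06), and averaged 18.1 FPKM at 0 h and 115 FPKM at 12 h. EIN3-binding F-box protein 1-like (CsaV3_3G046430), which removes the ethylene factor EIN3, fell by 1.57 (SE 0.12).

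Of 104 abscisic acid genes and protein phosphatases of the 2C class 38 rose and 40 fell (median -0.12). A gene described as a gamma regulatory subunit of SNF1-related kinase (CsaV3_1G000600, overlapping an opposite-strand gene) had 68.1, 61.2 and 22.2 FPKM at 24 h, against 1.46, 1.48 and 0.885 FPKM at 3 h, a log2 fold change of 5.38 with an SE of 0.48 (edgeR, adjusted p = 6.3e-05). The abscisic acid receptor PYL4 (CsaV3_6G001990) rose by 4.45 (SE 0.36), to 18.3 ± 6.15 FPKM at 24 h, against 0.862 ± 0.263 FPKM at 3 h, and the phosphatases 2C 75 (CsaV3_3G016530, overlapping an opposite-strand gene) and 2C 35 (CsaV3_6G005520) fell by 2.30 (SE 0.23) and 2.50 (SE 0.14). Of 80 auxin genes 26 rose and 29 fell (median -0.06). The most abundant, auxin-induced protein ARG2 (CsaV3_7G029330), had 7339, 7711 and 7582 FPKM at 24 h, against 2415, 2012 and 2161 FPKM at 3 h, a log2 fold change of 1.84 with an SE of 0.09 (edgeR, adjusted p = 5.4e-06). The amido synthetase GH3.1 (CsaV3_3G018080), which ties auxin to amino acids, rose by 4.21 (SE 0.39), and a further 15A-like SAUR gene (CsaV3_7G000570) fell by 5.26 (SE 0.42). Of 26 gibberellin and brassinosteroid genes 8 rose and 13 fell (median -0.36). Gibberellin-regulated protein 4 (CsaV3_3G041480) had 5.79, 7.22 and 14.02 FPKM at 24 h, against 76.03, 108 and 90.04 FPKM at 3 h, a log2 fold change of -3.29 with an SE of 0.33 (edgeR, adjusted p = 0.000109). The DELLA gene GAI (CsaV3_1G031060), a growth repressor that gibberellin removes, fell by 4.24 (SE 0.20), while gibberellin 20 oxidase 2-like (CsaV3_6G041260, overlapping an opposite-strand gene) rose by 2.01 (SE 0.21). For another DELLA gene, RGL2 (CsaV3_7G029990), the fitted log2 fold change was 3.29 (SE 1.06), with 23.7, 20.3 and 13.1 FPKM at 24 h, against 0, 3.39 and 2.71 FPKM at 3 h, and the call held in 14 of 18 alternatives, with adjusted p from 0.000641 to 0.116. Of 28 cytokinin genes 9 rose, 3 of them entered only through the 24 h libraries, and 5 fell (median 0.16, and 0.01 without 24 h replicate 3). Response regulator ARR2 (CsaV3_3G014970) rose by 1.66 (SE 0.11) and ARR8 (CsaV3_4G029770) fell by 2.08 (SE 0.24).

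Most genes of the photosynthetic apparatus were lower at 24 h. Of 42 genes for photosystem and light-harvesting proteins 4 rose and 29 fell (median -0.82), and of 31 genes of thylakoid electron transport and ATP synthase 2 rose and 24 fell (median -0.96). Chlorophyll a-b binding protein CP24 10A (CsaV3_6G005340), an antenna protein of photosystem II, had 242, 204 and 229.5 FPKM at 24 h, against 719, 679 and 731 FPKM at 3 h, a log2 fold change of -1.59 with an SE of 0.09 (edgeR, adjusted p = 9.73e-06). Photosystem I subunit II (CsaV3_3G013420), the docking site of ferredoxin, had 248, 248 and 269 FPKM at 24 h, against 771, 811 and 800.4 FPKM at 3 h, a log2 fold change of -1.58 with an SE of 0.07 (edgeR, adjusted p = 4.33e-06). Both genes averaged close to their 3 h level at 12 h, at 721 and 819 FPKM. Subunit S of the chloroplast NAD(P)H-quinone oxidoreductase (CsaV3_4G006610), a complex of cyclic electron flow, fell by 3.06 (SE 0.16). The abundant leaf ferredoxin L-A-like (CsaV3_3G019220) had 1703, 1638 and 1808 FPKM at 24 h, against 3281, 3469 and 3368 FPKM at 3 h, a log2 fold change of -0.91 with an SE of 0.07 (edgeR, adjusted p = 4.1e-05).

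A gene of the main antenna of photosystem II went against this. LHCII type I (CsaV3_6G051530) had 1288, 1472 and 1569 FPKM at 24 h, against 1037, 882 and 1015 FPKM at 3 h, a log2 fold change of 0.62 with an SE of 0.10 (edgeR, adjusted p = 0.00135), with 245 FPKM at 0 h and 3575 FPKM at 12 h. An LHCII type 1-like gene (CsaV3_6G013800) and the chlorophyll a-b binding protein 151 gene (CsaV3_7G002620), the most abundant of the list, had small log2 fold changes of 0.24 (SE 0.09) and 0.21 (SE 0.08). For the type 1-like gene the call held in 6 of 18 alternatives, with adjusted p from 0.00752 to 0.275, and for protein 151 the call held in 4 of 18 alternatives, with adjusted p from 0.0083 to 0.413. The count of rises in this list was 1 or 2 in 12 of the 18 alternatives, among them each of the 6 that leave out a library, whereas the falls stayed near 29 (27 to 30 without a library).

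Pigment enzymes and carbon fixation followed the photosystems with list medians of smaller size. Some of their genes still fell more than any tested photosystem or light-harvesting gene, whose lowest log2 fold change was -1.59. Of 26 chlorophyll and tetrapyrrole enzymes 3 rose and 12 fell (median -0.28), and 7 fell without 3 h replicate 3. The monomethyl ester cyclase of chlorophyll synthesis (CsaV3_4G031720) had 286, 283 and 359 FPKM at 24 h, against 657, 658 and 692 FPKM at 3 h, a log2 fold change of -1.05 with an SE of 0.10 (edgeR, adjusted p = 0.000102). Uroporphyrinogen-III C-methyltransferase (CsaV3_7G031380), which leads to siroheme instead, rose by 1.79 (SE 0.09). Of 25 carotenoid and xanthophyll enzymes 4 rose and 14 fell (median -0.49). Phytoene synthase (CsaV3_5G020340), the entry enzyme of carotenoid synthesis, had 52.3, 51.2 and 58.2 FPKM at 24 h, against 295, 282 and 312 FPKM at 3 h, a log2 fold change of -2.40 with an SE of 0.09 (edgeR, adjusted p = 2.5e-06). A second gene of this enzyme (CsaV3_4G007560) fell by 1.96 (SE 0.12). A pair of zeaxanthin epoxidase genes (CsaV3_2G031750 and CsaV3_7G001130), which close the xanthophyll cycle, rose by 1.83 (SE 0.18) and 0.94 (SE 0.14). Of 23 Calvin cycle genes 1 rose and 16 fell (median -0.41), and the small subunit of Rubisco (CsaV3_5G034360) had 14220, 12160 and 12130 FPKM at 24 h, against 19140, 20520 and 19810 FPKM at 3 h, a log2 fold change of -0.56 with an SE of 0.10 (edgeR, adjusted p = 0.00156). Transketolase (CsaV3_3G009790) fell by 1.61 (SE 0.12), and ribose-5-phosphate isomerase 2 (CsaV3_5G034910) rose by 2.03 (SE 0.13), as the only member to do so. Of 33 photorespiration genes 3 rose and 19 fell (median -0.54), and 5 rose without 24 h replicate 1. The glycolate oxidase GLO1 (CsaV3_6G051820) had 848, 777 and 762 FPKM at 24 h, against 2086, 2008 and 2063 FPKM at 3 h, a log2 fold change of -1.30 with an SE of 0.08 (edgeR, adjusted p = 1.36e-05), and glycine dehydrogenase (CsaV3_2G025570) fell by 1.71 (SE 0.11). Of 38 chloroplast protease and senescence genes 5 rose and 17 fell (median -0.21). STAY-GREEN LIKE (CsaV3_6G031220), of a gene family of chlorophyll breakdown, fell by 2.71 (SE 0.08).

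**Figure D4:**
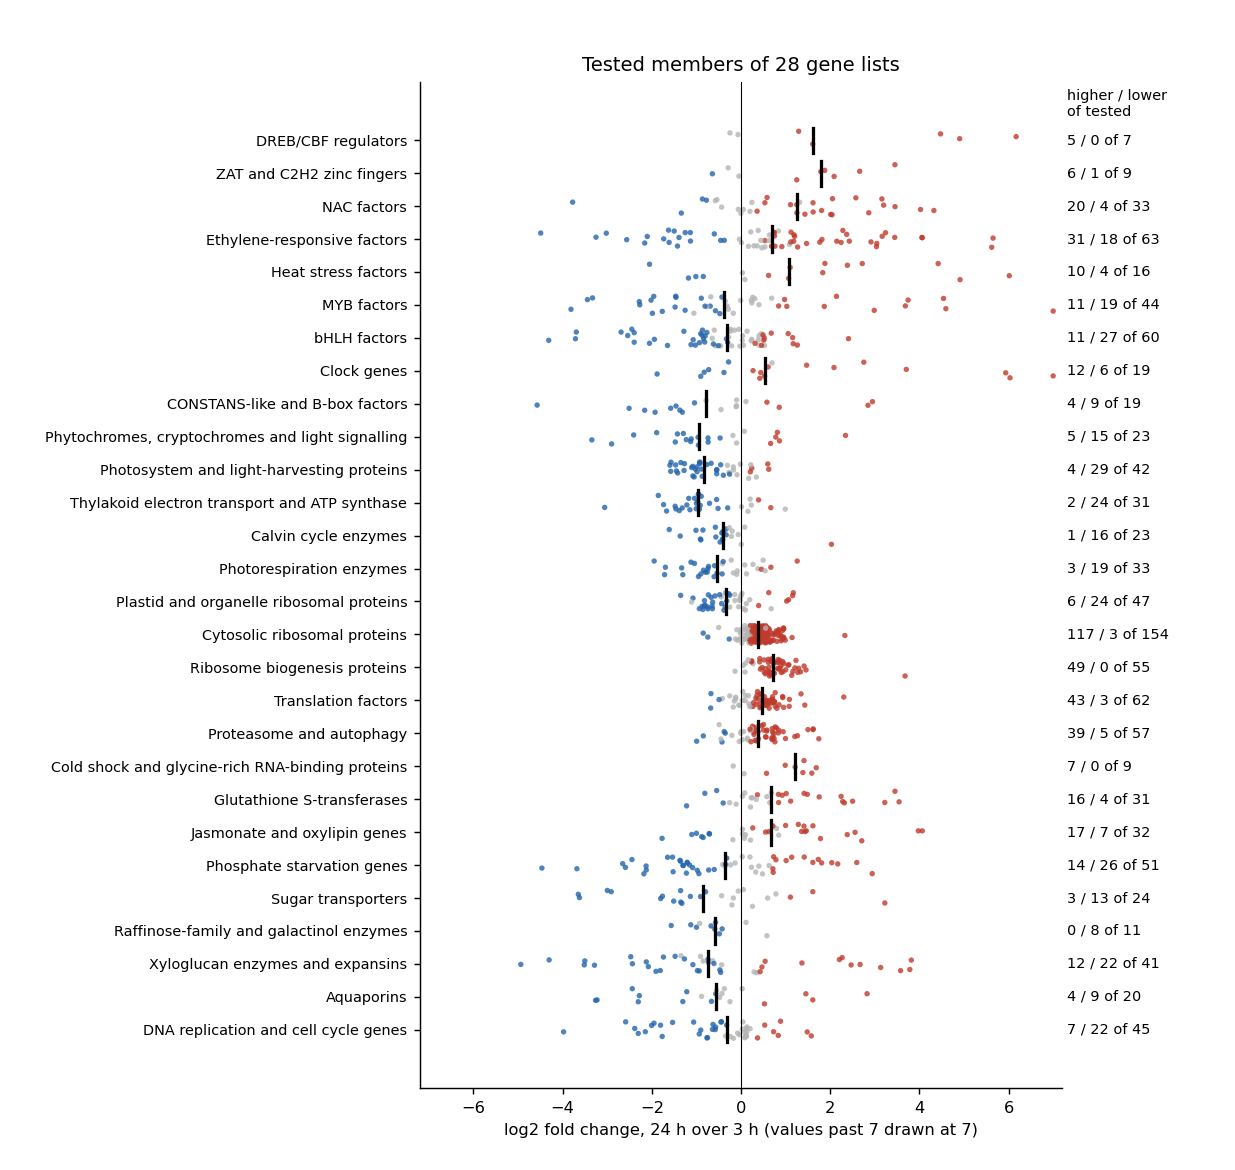
Log2 fold change (24 h over 3 h, horizontal axis) of each tested member of 28 gene lists, 1 point per gene, red where called higher at 24 h, blue where called lower and grey where not called; black bars are list medians, and the counts at the right give members called higher and lower of those tested. Cytosolic ribosomal and ribosome biogenesis genes lie just right of 0 and photosystem, thylakoid and plastid ribosomal genes left of it.

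The protein synthesis genes of the cytosol and of the plastid moved apart. Of 154 cytosolic ribosomal protein genes 117 rose and 3 fell (median 0.39), though only 2 rose by 2-fold or more. The acidic protein P0 gene (CsaV3_5G008980) had 632, 722 and 753 FPKM at 24 h, against 480.5, 521 and 493 FPKM at 3 h, a log2 fold change of 0.56 with an SE of 0.09 (edgeR, adjusted p = 0.000902), and protein L8-3 (CsaV3_6G046990) rose by 1.15 (SE 0.08). Of 55 ribosome biogenesis genes 49 rose and none fell (median 0.72). The U3 processome protein MPP10 (CsaV3_1G000640), which helps cut the ribosomal RNA precursor, had 23.1, 27.1 and 26.2 FPKM at 24 h, against 10.4, 9.99 and 8.65 FPKM at 3 h, a log2 fold change of 1.46 with an SE of 0.10 (edgeR, adjusted p = 2.26e-05). Of 62 translation factors 43 rose and 3 fell (median 0.47), and 5 fell without 24 h replicate 3. Elongation factor 1-alpha (CsaV3_2G011610) rose by 0.71 (SE 0.08), to 1632 ± 128 FPKM at 24 h, against 1043 ± 44.96 FPKM at 3 h. In contrast, of 47 ribosomal protein genes of plastids and other organelles 6 rose and 24 fell (median -0.33). Plastid protein L3 (CsaV3_6G006340) had 174, 166 and 195 FPKM at 24 h, against 325, 328 and 323 FPKM at 3 h, a log2 fold change of -0.81 with an SE of 0.08 (edgeR, adjusted p = 0.00011), and S6 alpha (CsaV3_5G001930) fell by 1.35 (SE 0.12). The chloroplast elongation factor Tu (CsaV3_1G001110) and initiation factor IF-3 (CsaV3_2G007620) fell by 0.68 (SE 0.11) and 0.67 (SE 0.08). Under upper quartile scaling 81 cytosolic ribosomal genes rose and 4 fell, and 46 biogenesis genes rose and none fell.

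Most genes on the lists of glycine-rich RNA-binding proteins and of the proteasome also rose. Of 9 cold shock and glycine-rich RNA-binding genes 7 rose and none fell (median 1.21). The gene described as blt801 (CsaV3_1G002940, overlapping an opposite-strand gene), named for a cold-induced barley protein, had 143, 163 and 196 FPKM at 24 h, against 71.9, 82.5 and 71.5 FPKM at 3 h, a log2 fold change of 1.21 with an SE of 0.12 (edgeR, adjusted p = 0.000112). A mitochondrial glycine-rich protein 4 gene (CsaV3_3G022690) rose by 1.69 (SE 0.10) and the RZ1C-like gene (CsaV3_2G021100) by 1.59 (SE 0.24). Of 57 proteasome and autophagy genes 39 rose and 5 fell (median 0.38; 29 and 6 under upper quartile scaling), and 3 fell without 3 h replicate 1, 2 or 3 or without 24 h replicate 2. The ubiquitin receptor RPN13 (CsaV3_2G009110) had 56.6, 56.9 and 60.1 FPKM at 24 h, against 20.2, 20.3 and 18.4 FPKM at 3 h, a log2 fold change of 1.62 with an SE of 0.08 (edgeR, adjusted p = 5.69e-06), and autophagy-related protein 18f (CsaV3_UNG229010) rose by 1.75 (SE 0.16). Of 78 ubiquitin ligases of the U-box and RING-H2 types 20 rose and 31 fell (median -0.26), with ATL78-like (CsaV3_6G041880) up by 4.09 (SE 0.34) and ATL79-like (CsaV3_5G001360) down, at -3.73 (SE 0.14). Of 71 genes of mitochondrial respiration 21 rose and 13 fell (median 0.01), 18 and 20 under upper quartile scaling. Mitochondrial uncoupling protein 5 (CsaV3_6G045100) had 449.7, 518 and 604 FPKM at 24 h, against 104, 91.9 and 101 FPKM at 3 h, a log2 fold change of 2.46 with an SE of 0.12 (edgeR, adjusted p = 4.97e-06).

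Genes of sugar handling were more often lower than higher late, and those of trehalose metabolism and starch breakdown went both ways. Of 24 sugar transporters 3 rose and 13 fell, 11 of them by at least 2-fold (median -0.85), and 5 rose without 24 h replicate 1. SWEET2 (CsaV3_4G032810, overlapping an opposite-strand gene), a vacuolar sugar channel in Arabidopsis, had 14.2, 18.1 and 12.9 FPKM at 24 h, against 196, 186 and 209 FPKM at 3 h, a log2 fold change of -3.65 with an SE of 0.15 (edgeR, adjusted p = 3.32e-06). Polyol transporter 5-like (CsaV3_2G014540) had 16.2, 18.9 and 30.3 FPKM at 24 h, against 270.4, 290.5 and 278 FPKM at 3 h, a log2 fold change of -3.62 with an SE of 0.23 (edgeR, adjusted p = 1.37e-05). Sugar transport protein 13-like (CsaV3_6G038210), a hexose importer of stressed cells, rose by 3.23 (SE 0.37). Of 29 trehalose and sucrose enzymes 11 rose and 13 fell (median -0.28). A trehalose-phosphate synthase gene (CsaV3_5G031700) had 117, 96.5 and 56.6 FPKM at 24 h, against 7.76, 8.92 and 6.74 FPKM at 3 h, a log2 fold change of 3.60 with an SE of 0.28 (edgeR, adjusted p = 3.32e-05), and neutral invertase A (CsaV3_3G015320) rose by 3.27 (SE 0.32). Trehalose-phosphate phosphatase J genes CsaV3_UNG144090 and CsaV3_4G004750 fell by 2.77 (SE 0.22) and 2.80 (SE 0.21); a further gene with this description, CsaV3_UNG213460, named after its values were seen, fell by 2.78 (SE 0.21), and near-identical copies could share reads.

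Of 32 starch genes 7 rose and 16 fell (median -0.26), and 4 rose without 3 h replicate 2 or without 24 h replicate 2. Phosphoglucan phosphatase LSF1 (CsaV3_3G042460), which acts in starch breakdown, had 13.96, 18.3 and 21.4 FPKM at 24 h, against 1.84, 2.20 and 1.79 FPKM at 3 h, a log2 fold change of 3.26 with an SE of 0.18 (edgeR, adjusted p = 7.28e-06), and alpha-amylase 3 (CsaV3_5G032400) rose by 1.80 (SE 0.18). Granule-bound starch synthase 1 (CsaV3_5G001560), which makes amylose, fell by 0.78 (SE 0.14), and beta-amylase 1 (CsaV3_2G012230) by 2.06 (SE 0.40). Of 11 raffinose-family and galactinol enzymes none rose and 8 fell (median -0.59), and 4 fell without 3 h replicate 3; without 24 h replicate 3, 1 rose. These make soluble sugars that accumulate in many chilled plants and that cucumber and its relatives carry in the phloem. A galactinol--sucrose galactosyltransferase gene (CsaV3_1G000950) fell by 1.56 (SE 0.10). Galactinol synthase 2-like (CsaV3_1G015730), whose enzyme makes the galactosyl donor, had 89.96, 63.1 and 21.3 FPKM at 24 h, against 35.9, 50.9 and 35.7 FPKM at 3 h, and was not called. The most abundant member, an inositol-3-phosphate synthase-like gene (CsaV3_UNG190490), had 849.8, 639 and 553 FPKM at 24 h, against 1015, 1033 and 1122 FPKM at 3 h. It was called lower, and the call held in 16 of 18 alternatives, with adjusted p from 0.000313 to 0.0611.

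Phosphate genes held some of the sharpest falls. Under phosphate shortage plants replace phospholipids by galactolipids and raise phosphate-freeing enzymes. Of 51 genes named for this response 14 rose and 26 fell, 20 of them by at least 2-fold (median -0.36). Monogalactosyldiacylglycerol synthase 2 (CsaV3_2G003280, overlapping an opposite-strand gene), which makes galactolipid, had 11.7, 16.2 and 21.4 FPKM at 24 h, against 208, 232 and 217 FPKM at 3 h, a log2 fold change of -3.68 with an SE of 0.21 (edgeR, adjusted p = 8.9e-06), and a mean of 10.3 FPKM at 0 h. It shared with phospholipase D p2 a level near that of 0 h at 24 h. SPX domain-containing protein 1 (CsaV3_1G030190), a phosphate sensor named after its values were seen, had 36.2, 47.4 and 90.3 FPKM at 24 h, against 376, 376 and 385 FPKM at 3 h, a log2 fold change of -2.65 with an SE of 0.31 (edgeR, adjusted p = 0.000228). Inorganic pyrophosphatase 2-like (CsaV3_7G034880), the most abundant member, had 235, 312 and 498 FPKM at 24 h, against 585, 626 and 586 FPKM at 3 h, and a log2 fold change of -0.72 (SE 0.24); the call held in 14 of 18 alternatives, with adjusted p from 0.000207 to 0.104. Its mean at 12 h was 44.05 FPKM, below both groups. A pair of PHO1 homolog 3-like genes, of a family that exports phosphate, went up: CsaV3_5G025280 had 118, 166 and 170.3 FPKM at 24 h, against 24.2, 16.4 and 20.96 FPKM at 3 h, a log2 fold change of 2.94 with an SE of 0.19 (edgeR, adjusted p = 1.63e-05), and CsaV3_5G033010 rose by 2.60 (SE 0.17).

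Of 28 nitrogen genes 10 rose and 8 fell (median 0.12), a split that was even or turned round in 6 alternatives. Ammonium transporters moved apart. Ammonium transporter 3 member 3-like (CsaV3_6G047560) had 302, 154 and 26.2 FPKM at 24 h, against 5.06, 4.66 and 3.21 FPKM at 3 h, a log2 fold change of 5.30 with an SE of 0.85 (edgeR, adjusted p = 0.00112). Ammonium transporter 1 member 2-like (CsaV3_2G010040) had 3.82, 2.99 and 5.10 FPKM at 24 h, against 95.3, 81.5 and 103 FPKM at 3 h, a log2 fold change of -4.50 with an SE of 0.21 (edgeR, adjusted p = 4.74e-06), and its neighbour CsaV3_2G010060 fell by 3.06 (SE 0.33). Asparagine synthetase (CsaV3_6G016090), which stores nitrogen in asparagine, had 67.3, 37.9 and 7.62 FPKM at 24 h, against 2.21, 4.33 and 2.06 FPKM at 3 h, a log2 fold change of 3.79 with an SE of 0.75 (edgeR, adjusted p = 0.0033). The most abundant member, a nitrate reductase gene (CsaV3_2G026770), rose by 0.99 (SE 0.16), to 1367 ± 277 FPKM at 24 h, against 721 ± 91.3 FPKM at 3 h. In the rising transporter and in asparagine synthetase, 24 h replicate 1 was far above replicate 3, though all 24 h libraries stood above all 3 h libraries.

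Genes of cell expansion and water transport were more often lower than higher at 24 h. Of 41 xyloglucan enzymes and expansins 12 rose and 22 fell (median -0.74). Expansin-A8 (CsaV3_6G002280), which loosens walls in growing cells, had 71.4, 54.4 and 32.4 FPKM at 24 h, against 480.5, 648 and 488 FPKM at 3 h, a log2 fold change of -3.29 with an SE of 0.30 (edgeR, adjusted p = 6.64e-05), and the A8-like gene CsaV3_5G010900 fell by 3.50 (SE 0.17). Expansin-like A2 (CsaV3_7G001500) rose by 3.82 (SE 0.51) and a xyloglucan endotransglucosylase gene (CsaV3_1G031460) by 3.13 (SE 0.13), to 226 ± 7.95 FPKM at 24 h, against 26.9 ± 4.50 FPKM at 3 h. Of 72 pectin enzymes 20 rose and 33 fell (median -0.35). A pectinesterase-like gene (CsaV3_7G033930) had 152, 84.1 and 63.9 FPKM at 24 h, against 4.40, 5.05 and 3.17 FPKM at 3 h, a log2 fold change of 4.64 with an SE of 0.37 (edgeR, adjusted p = 3.82e-05), and polygalacturonase At1g48100 (CsaV3_2G024660) fell by 4.41 (SE 0.13). Of 41 cellulose and xylan synthesis genes 12 rose and 16 fell (median -0.34), among them cellulose synthase-like G2 (CsaV3_4G006820), which fell by 2.79 (SE 0.18), and B4 (CsaV3_7G003440), which rose by 2.27 (SE 0.16).

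Of 20 aquaporins 4 rose and 9 fell (median -0.56). A run of neighbouring plasma membrane aquaporin genes on chromosome 6 held 4 of the 5 steepest falls. PIP2-2 (CsaV3_6G039540, chromosome 6, 22701550 to 22703370) had 128, 81.99 and 45.5 FPKM at 24 h, against 703, 975 and 835 FPKM at 3 h, a log2 fold change of -3.23 with an SE of 0.37 (edgeR, adjusted p = 0.000206). The PIP2-1-like genes CsaV3_6G039530, CsaV3_6G039520 and CsaV3_6G039550 fell by 3.26 (SE 0.34), 2.44 (SE 0.18) and 2.28 (SE 0.22), the second of them overlapping an opposite-strand gene, and as close relatives they may share reads. In the same run a weakly expressed PIP2-2-like gene (CsaV3_6G039500) was called higher, at 3.46, 5.78 and 4.54 FPKM at 24 h, against 0.933, 0.657 and 0.422 FPKM at 3 h. The vacuolar TIP1-1 (CsaV3_6G040100), the most abundant aquaporin, had 1803, 1613 and 1159 FPKM at 24 h, against 1735, 2027 and 1918 FPKM at 3 h, and was not called.

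Cell division genes were more often lower than higher at 24 h. Of 45 replication and cell cycle genes 7 rose and 22 fell (median -0.32), 2 and 9 with a mean of at least 5 FPKM required. Putative cyclin-D6-1 (CsaV3_6G012330) had 2.21, 2.58 and 3.07 FPKM at 24 h, against 41.5, 43.4 and 44.2 FPKM at 3 h, a log2 fold change of -3.98 with an SE of 0.13 (edgeR, adjusted p = 1.59e-06), and cyclin-D3-3 (CsaV3_7G008310), a driver of entry into the cell cycle, fell by 2.15 (SE 0.26). Of 25 histone genes 2 rose and 12 fell (median -0.37). Histone H4 (CsaV3_6G017050) had 0.675, 0.672 and 0.764 FPKM at 24 h, against 10.3, 8.03 and 8.41 FPKM at 3 h, a log2 fold change of -3.59 with an SE of 0.19 (edgeR, adjusted p = 6.66e-06). This H4 gene entered only through the 3 h libraries. The rises were small: H2A.6 (CsaV3_3G022800) rose by 0.48 (SE 0.07), and for histone H3.2 (CsaV3_1G042610, overlapping a same-strand gene), at 0.69 (SE 0.24), the call held in 10 of 18 alternatives, with adjusted p from 0.0143 to 0.123. The abundant H3.3 gene (CsaV3_UNG221510) was not called.

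Genes of surface lipids and membrane lipids were more often lower than higher at 24 h. Of 30 wax, cutin and lipid transfer genes, which mark the epidermis, 4 rose and 17 fell (median -0.61). 3-ketoacyl-CoA synthase 6 (CsaV3_5G034300), the wax elongase, had 9.85, 7.01 and 10.97 FPKM at 24 h, against 69.3, 83.6 and 75.8 FPKM at 3 h, a log2 fold change of -2.98 with an SE of 0.17 (edgeR, adjusted p = 9.64e-06), and synthase 19 (CsaV3_3G012730) fell by 2.37 (SE 0.11). Of 40 fatty acid synthesis and desaturation genes 3 rose and 24 fell (median -0.34). Fatty acid desaturase 4 of the chloroplast (CsaV3_3G005230, overlapping an opposite-strand gene) had 12.4, 18.03 and 24.3 FPKM at 24 h, against 166, 164 and 186 FPKM at 3 h, a log2 fold change of -3.18 with an SE of 0.23 (edgeR, adjusted p = 2.38e-05). The omega-3 desaturase (CsaV3_5G010230), which makes trienoic fatty acids, had 193, 159.6 and 175 FPKM at 24 h, against 423, 379 and 425 FPKM at 3 h, a log2 fold change of -1.16 with an SE of 0.10 (edgeR, adjusted p = 5.89e-05). A palmitoyl-ACP thioesterase (CsaV3_1G030920), which releases saturated fatty acids, rose by 1.58 (SE 0.07), to 65.6 ± 3.60 FPKM at 24 h, against 22.9 ± 0.397 FPKM at 3 h.

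Genes of detoxification were more often higher for glutathione S-transferases and more often lower for antioxidant enzymes. Of 31 glutathione S-transferases 16 rose and 4 fell (median 0.68). GST U8-like (CsaV3_4G025770) had 199, 124 and 164 FPKM at 24 h, against 13.99, 21.4 and 8.32 FPKM at 3 h, a log2 fold change of 3.54 with an SE of 0.35 (edgeR, adjusted p = 0.000101), and a further gene of the family nearby on chromosome 4 (CsaV3_4G025680) rose by 3.45 (SE 0.39). The most abundant, U25-like (CsaV3_4G007720), had a log2 fold change of 0.84 (SE 0.24), and without 24 h replicate 1 it was 0.47; the call held in 16 of 18 alternatives, with adjusted p from 0.00103 to 0.0664. Of 69 antioxidant genes 15 rose and 27 fell (median -0.09). Catalase isozyme 1 (CsaV3_4G037250), a peroxisomal enzyme that clears hydrogen peroxide of photorespiration, had 322, 406 and 394 FPKM at 24 h, against 1552, 1539 and 1659 FPKM at 3 h, a log2 fold change of -2.02 with an SE of 0.11 (edgeR, adjusted p = 6.3e-06). Thioredoxin M3 (CsaV3_7G008540) rose by 6.27 (SE 0.28), while thioredoxin-like 1-1 (CsaV3_3G043360) fell by 2.98 (SE 0.14). A cytosolic ascorbate peroxidase-like gene (CsaV3_1G033510), named after its values were seen, rose by 1.24 (SE 0.09), at 903, 922 and 1036 FPKM at 24 h, against 409, 457 and 399.7 FPKM at 3 h.

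Of 28 secreted peroxidases and respiratory burst oxidases 11 rose and 11 fell (median -0.06, and 0.08 without 3 h replicate 1), and 5 of the falls entered only through the 3 h libraries. Peroxidase N1-like (CsaV3_7G006370) rose by 3.98 (SE 0.17), and peroxidase 2-like (CsaV3_4G023590), the most abundant, had 1046, 802 and 823 FPKM at 24 h, against 421, 529 and 366 FPKM at 3 h, a log2 fold change of 1.09 with an SE of 0.16 (edgeR, adjusted p = 0.000779). Of 63 phenylpropanoid and lignin enzymes 22 rose, a share near that of all genes, and 25 fell (median -0.02). Phenylalanine ammonia-lyase-like (CsaV3_6G039690), the entry enzyme, had 102, 111 and 144 FPKM at 24 h, against 12.3, 8.47 and 12.96 FPKM at 3 h, a log2 fold change of 3.46 with an SE of 0.21 (edgeR, adjusted p = 1.06e-05), and caffeoylshikimate esterase-like (CsaV3_1G010300) rose by 4.76 (SE 0.16). Cinnamoyl-CoA reductase 1-like (CsaV3_7G031910) fell by 3.52 (SE 0.14). Of 65 chitinases, LysM and defence proteins 16 rose and 23 fell (median -0.25). MLO-like protein 2 (CsaV3_5G036400), of a family that conditions powdery mildew susceptibility, had 474, 456 and 460.2 FPKM at 24 h, against 146, 130.1 and 142 FPKM at 3 h, a log2 fold change of 1.79 with an SE of 0.08 (edgeR, adjusted p = 4.23e-06). Chitinase 1-like (CsaV3_6G047720) rose by 4.62 (SE 0.54), to 14.5 ± 5.22 FPKM at 24 h, against 0.619 ± 0.423 FPKM at 3 h.

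Genes often used as references were not level. Of 19 actin, tubulin, ubiquitin and elongation factor genes 10 rose and 3 fell (median 0.42). Actin-7 (CsaV3_2G018090) had 169.5, 172 and 199 FPKM at 24 h, against 158, 174 and 165 FPKM at 3 h, and with a log2 fold change of 0.18 (SE 0.09) it was not called. Tubulin alpha-6 (CsaV3_3G043190) rose by 1.77 (SE 0.12), and a beta-tubulin gene (CsaV3_1G037170) by 1.93 (SE 0.16), to 27.5 ± 4.34 FPKM at 24 h, against 7.54 ± 1.13 FPKM at 3 h.

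Markers of other cell types were summed as a rough check on tissue makeup, though a sum can stay level while members move apart. Guard cell genes (5 of 19 rose and 8 fell, of which 2 and 4 entered only through the higher group) summed to 110.2 to 135 FPKM at 24 h and 125 to 132 FPKM at 3 h. Channel and transporter genes of this list went both ways. SLAC1 (CsaV3_3G003380) fell by 2.31 (SE 0.27) and KAT3 (CsaV3_3G046820) by 1.16 (SE 0.16), and both overlap opposite-strand genes. S-type anion channel SLAH1-like (CsaV3_7G003500) rose by 3.18 (SE 0.43). Aluminum-activated malate transporter 9-like (CsaV3_5G002280) rose by 2.34 (SE 0.70), though its 24 h and 3 h libraries overlapped. SLAC1 entered only through the 3 h libraries and SLAH1-like only through the 24 h libraries. EPIDERMAL PATTERNING FACTOR-like 3 (CsaV3_3G043680) carried more of the sum and rose, at 30.6 FPKM at 24 h, against 12.3 FPKM at 3 h. The level sum thus does not show level guard cell RNA. Root-type genes (7 of 19 rose and 7 fell) summed to 1365 to 1520 FPKM at 24 h and 1551 to 1736 FPKM at 3 h. These are mostly extensin and early nodulin genes matched by description, and abundant ones moved in opposite directions. An extensin-like gene (CsaV3_1G026750) averaged 616 FPKM at 24 h, against 1296 FPKM at 3 h. Early nodulin-like protein 2 (CsaV3_7G032400) averaged 393.5 FPKM at 24 h, against 82.8 FPKM at 3 h. Their sum is therefore a weak check on makeup. Phloem genes (9 of 18 rose and 8 fell; 6 rose without 3 h replicate 2 or without 24 h replicate 2) summed to 731 to 1512 FPKM at 24 h and 450.0 to 628 FPKM at 3 h. PHLOEM PROTEIN 2-LIKE A4 (CsaV3_7G006120) carried much of that sum, with 220.4, 589.9 and 573 FPKM at 24 h, against 238, 157 and 188 FPKM at 3 h, so the low 24 h library overlapped the 3 h libraries, and the call held in 16 of 18 alternatives, with adjusted p from 0.000112 to 0.0564. An A4-like gene (CsaV3_1G037670) also carried much of the sum. It had 114, 525 and 603 FPKM at 24 h, against 154, 68.1 and 93.99 FPKM at 3 h, and its groups overlapped. PHLOEM PROTEIN 2-LIKE A9 (CsaV3_1G046600) rose by 2.92 (SE 0.09). PP2-B10 (CsaV3_1G031370) and PP2-B10-like (CsaV3_1G031350) fell, with log2 fold changes of -2.847 (SE 0.225) and -1.075 (SE 0.121). The larger sum thus does not show a rise of the whole list. The part of these cell types in the other results was not tested. Within the guard cell list, EPIDERMAL PATTERNING FACTOR-like 9 (CsaV3_7G026610, overlapping an opposite-strand gene), known in Arabidopsis as the stomata-promoting peptide, fell by 3.23 (SE 0.17).

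A few genes were silent in a whole group. Estimated counts were 0 in all 3 h libraries for 5 tested genes and in all 24 h libraries for 6. Of the 5 genes silent at 3 h, 3 averaged at least 5 FPKM at 24 h, and none of the 6 did so at 3 h. EPIDERMAL PATTERNING FACTOR-like protein 6 (CsaV3_1G036650), of a family of secreted peptides that set stomatal spacing and growth, had 11.3, 11.5 and 6.88 FPKM at 24 h, was listed at 0 in the 3 h libraries and averaged 6.25 FPKM at 12 h. A hypothetical protein gene (CsaV3_7G032810) had 34.9, 35.7 and 51.6 FPKM at 24 h and was listed at 0 at 3 h. A UPF0481 gene (CsaV3_2G032010, overlapping an opposite-strand gene) had 8.44, 4.38 and 3.89 FPKM at 24 h and was listed at 0 at 3 h.

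Genes with large changes in either direction differed widely between the 24 h libraries. The highest 24 h library was at least 2 times the lowest in 253 of the 840 genes that rose at least 4-fold (30.1%) and in 260 of the 711 that fell at least 4-fold (36.6%), against 12.6% of all tested genes. Among the 3 h libraries the shares were 24.8% of these rises and 1.69% of these falls, against 4.24% of all tested genes. In the rises the 3 h libraries are the lower group, and in the falls the 24 h libraries are. Within either set, level and group therefore cannot be told apart. On the higher side the shares were 30.1% for the 24 h libraries and 1.69% for the 3 h libraries. On the lower side they were 36.6% and 24.8%, and each pair of shares compares different genes. Replicate 2 was the lowest 24 h library in 9.88% of these rises and 36.4% of these falls, against 23.8% of all tested genes. Ammonium transporter 3 member 3-like, asparagine synthetase, dehydrin DHN1-like, dnaJ 11-like and TSJT1, all described above, had their lowest 24 h level in replicate 3. A lipid-transfer-like gene (CsaV3_3G013110) had 50.2, 16.02 and 4.83 FPKM at 24 h, against 1.51, 2.20 and 1.31 FPKM at 3 h, a log2 fold change of 3.89 with an SE of 0.81 (edgeR, adjusted p = 0.00414). The short-chain dehydrogenase 3b-like and thiamine thiazole synthase genes had their lowest 24 h level in replicate 1. In each of these genes all 24 h libraries stood above all 3 h libraries, and each call held in all 18 alternatives.

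**Figure D5:**
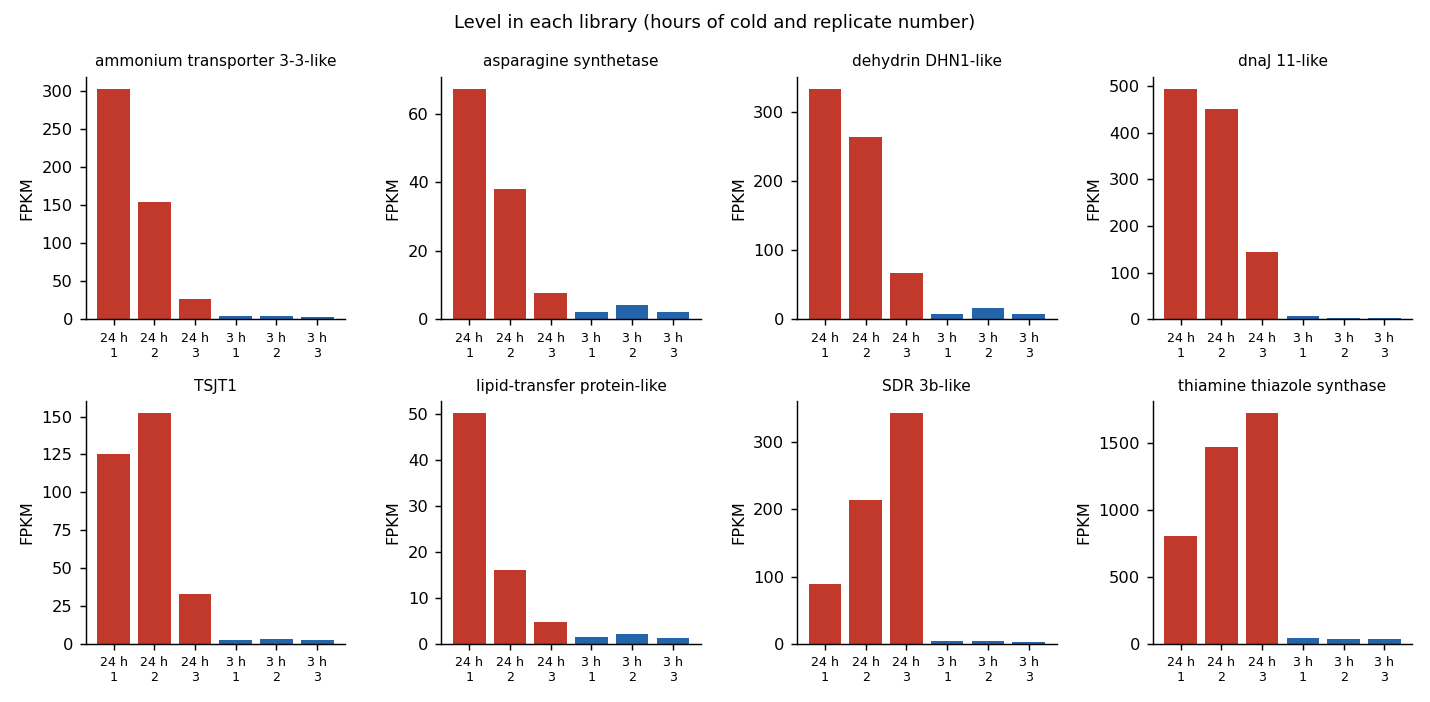
FPKM in each of the 3 libraries of 24 h (red) and of 3 h (blue) for 8 genes that rose and whose 24 h libraries differ widely; bars start at 0. The first 6 genes are lowest in 24 h replicate 3, for example ammonium transporter 3 member 3-like at 302, 154 and 26.2 FPKM, and the last pair is lowest in 24 h replicate 1.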

How the data were processed

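The 6 libraries of the comparison, and 6 more at 0 h and 12 h given as levels, came from 1 deposited table. Per the series' design text, reads were mapped to the cucumber genome with HISAT2. FastQC and cutadapt 1.9 are named per the submitters' processing notes. Which tool, annotation, build and strandedness were used for counting was not given in the sources used here. Estimated counts were deposited by the authors as whole numbers, and their low values are spaced by about 3.87. FPKM for the same genes, normalized to transcript length and library size by the authors, were deposited beside them. A deposited filler of 0.0001 stands at every count of 0 and was read as 0.

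Estimated counts were tested as deposited with edgeR 4.0.16 (R 4.3.3). The test used TMM scaling, a quasi-likelihood fit on the 6 libraries and Benjamini-Hochberg adjustment over 15798 genes (threshold 0.05). In each library 99.73% or more of the counts lay in tested genes. The SE of a log2 fold change was its size divided by the square root of the F statistic. Levels are FPKM, given per library or as mean ± SD. The test was checked on simulated data. Whether replicate numbers pair the libraries is not stated in the labels. Deviations of same-numbered libraries correlated at -0.001, -0.091 and 0.147, and those of differently numbered libraries at -0.178 to 0.155. With 3 libraries a group these values cannot decide on pairing, and the main fit used none.

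Genes were named by a rule that took the 12 largest rises and falls on log2(FPKM + 1) among described, called genes that averaged 5 FPKM or more in their higher group without overlap, the 2 largest rises and falls and the most abundant member of each of 62 gene lists, and genes at 0 in 1 group. It gave 302 genes, of which the text gives those that carry a list's pattern. Lists of up to 20 tested genes could be described in full. Members and lists were chosen with earlier results of these data known, and lists were matched on the table's gene descriptions. Alternatives used DESeq2 1.42.0, limma 3.58.1 on log2(FPKM + 1) and log2(FPKM + 0.1), other scalings and filters, all 12 libraries, a replicate block, counts divided by their spacing, and each library left out. Figures were drawn with matplotlib 3.10.9.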

Additional observations from a re-analysis of the deposited data

How the results depend on the processing

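The count of 9901 calls stayed between 7550 (genes averaging 5 FPKM or more, 11187 tested) and 10898 (all 12 libraries in the fit) under the alternatives that keep all 6 libraries; DESeq2 gave 10307 and limma on log2(FPKM + 1) gave 10034. Leaving out 1 library gave 8300 to 10221 calls, and 4407 to 4823 calls of at least 2-fold. Of the counts over all genes, 1 moved by over 1.5 times: calls of at least 2-fold numbered 3062 with a mean of at least 5 FPKM required, against 4602, where fewer genes were tested. Upper quartile scaling gave 42.3% of calls as higher, against 50.8%, with the median of all genes shifted by -0.134. With a replicate block 9348 genes were called. Whether the numbers pair the libraries is not known, so this count is not read as a weaker effect.

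Over the 302 named genes and their alternatives, 97 of 5420 values (18 genes) lost the call and 14 (4 genes) gained it, and no called gene changed direction. The uncalled CONSTANS-LIKE 5-like gene (CsaV3_1G031230), at a log2 fold change of 0.11, was below 0 in 4 alternatives and moved to -0.27 without 24 h replicate 1; the other 5308 values stayed on their side of the threshold. Of 2232 list counts, 83 moved by over 1.5 times, 39 of 124 counts being touched at least once; the mean filter of 5 FPKM lowered counts of low-level families (ethylene-responsive factors 18 higher, NAC factors 15, WRKY factors 10). More often called higher turned to more often lower, or to an even split, for DnaJ, nitrogen and mitochondrial lists under upper quartile scaling. List medians near 0 changed with single libraries: heat shock proteins (0.03) ran to -0.09 without 24 h replicate 3 and 0.13 without 24 h replicate 1, phenylpropanoid enzymes (-0.02) to -0.15 and auxin genes (-0.06) to -0.19 without 24 h replicate 3, and root-type genes (-0.17) to 0.06 without 24 h replicate 1 and -0.39 without 24 h replicate 2. With 3 libraries a group, small changes may miss the threshold, so an uncalled gene is not shown to be level. Promoter motifs were not run, since promoter sequences were not used here.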
